A study of Caenorhabditis elegans with 6 samples.

Results

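Open chromatin was examined at 7 genes of chromatin remodelling and repressor complexes in Caenorhabditis elegans: swsn-1, let-526, isw-1, lin-40, rcor-1, dot-1.1 and zfp-1, out of 19971 protein-coding genes. The measurements are ATAC-seq peaks, sites where the Tn5 transposase cut accessible DNA. A peak was given to a gene if its summit lay nearest to an end of that gene, or inside the gene. The genes were chosen by the number, position, fold and rank of these same peaks, so those values are given as a description and were not tested.

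All animals were of strain OH11061 and carried the transgene otIs381, a nuclear GFP reporter that labels neurons. The neuronal group held 3 samples of nuclei positive for GFP and for the DNA stain DAPI. The total group held 3 samples of nuclei gated on DAPI alone. Each sample had 50000 nuclei from mixed-stage cultures, mostly larvae, grown at 20 °C. The total gate does not remove GFP-positive nuclei, so neuronal nuclei are part of both groups, and the reporter is driven by the promoter of a pan-neuronal gene, ric-19, whose own peak cannot be separated from reads of the transgene. The data consist of a single list of peaks for each group, placed on build ce11, and the neuronal list holds 2313 peaks and the total list 2683. Values of single samples were not analysed here, so no value below has a replicate error, and depth per sample is unknown. A site open in fewer nuclei and a site cut less often per nucleus cannot be told apart in either list.

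Chromatin remodellers use ATP to slide, evict or space nucleosomes, and corepressor complexes remove activating histone marks or compact nearby chromatin. The main remodeller families are SWI/SNF, ISWI, CHD and INO80, and NuRD is a complex built on a CHD ATPase. CoREST joins a histone deacetylase and a demethylase, and DOT1 enzymes methylate the core of histone H3. Several of these genes were first found through defects in vulval development, germline fate or neuronal gene expression. The gene table used has no strand or exons, so positions are given relative to the low-coordinate and high-coordinate end of each gene, not to its start of transcription.

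The 7 genes had 10 peaks in the neuronal list and 13 in the total list, which make 13 separate sites. At 10 sites both lists had a peak. The other 3 sites, 2 at isw-1 and 1 at dot-1.1, had a peak in the total list alone, and no site had a peak in the neuronal list alone. Over the whole lists, 4.11% of neuronal peaks overlapped no total peak and 17.4% of total peaks overlapped no neuronal peak. Since the rule drew on these peaks, the counts are set beside that background without being read against it. A peak missing from a list of reproducible peaks is not shown to be closed chromatin.

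**Figure D1:**
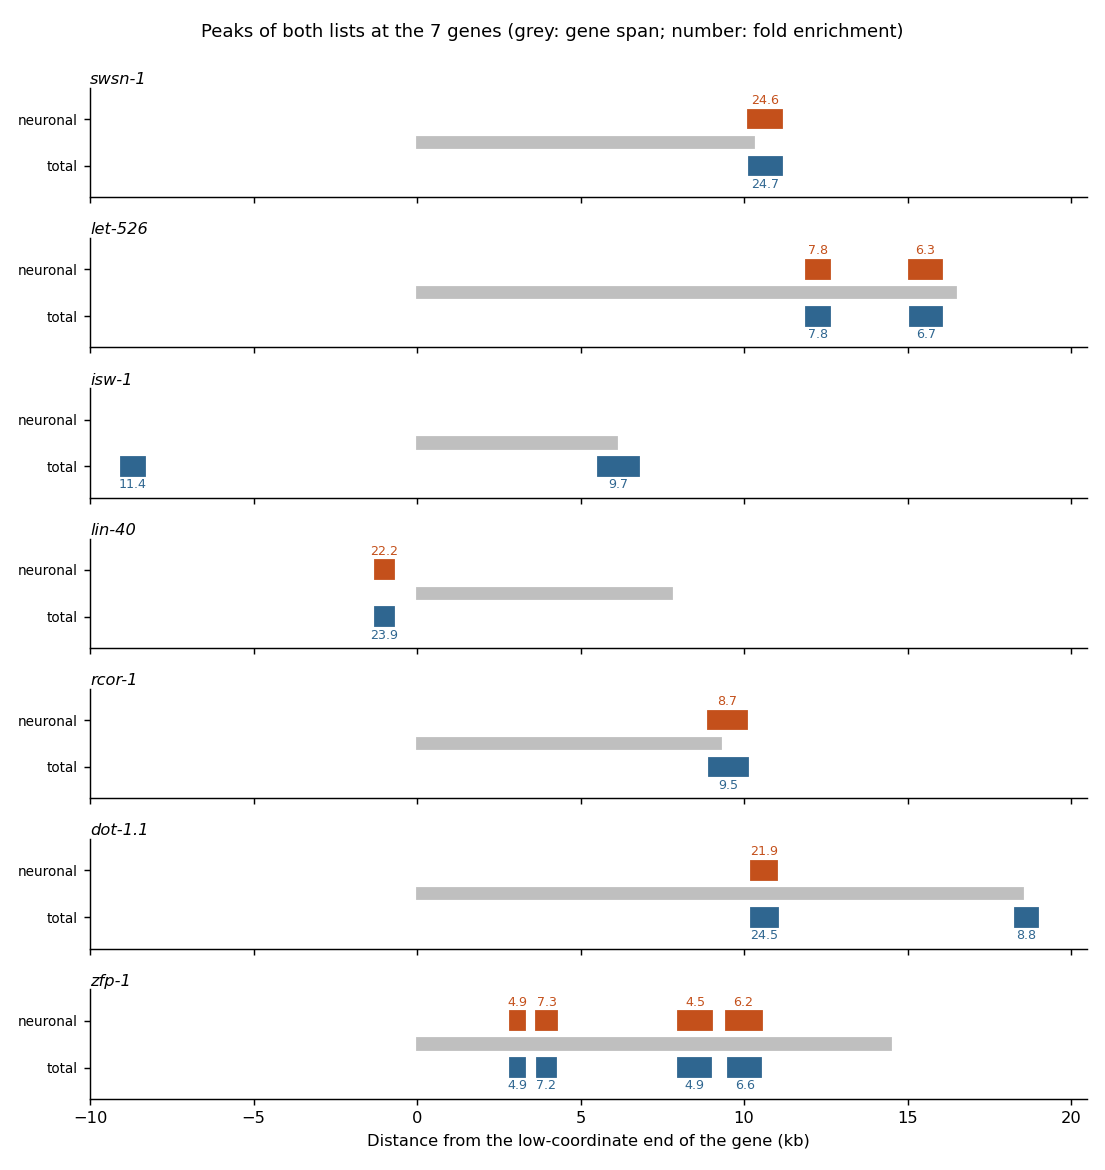
Peaks of the neuronal list (above each gene) and the total list (below it) at the 7 genes, by distance in kb from the low-coordinate end of the gene, with the gene span in grey and the authors' fold enrichment beside each peak. Sites of both lists coincide at 10 positions, the 2 isw-1 sites and the outer dot-1.1 site have a peak in the total list alone, and zfp-1 and let-526 hold all their peaks inside the gene.

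Both lists placed the shared sites at nearly the same base. The summits of the 2 lists were 0 to 5 bp apart at 9 of the 10 shared sites and 102 bp apart at the last, zfp-1 site 4. Peak widths at the members ran from 456 to 1181 bp in the neuronal list and from 448 to 1252 bp in the total list. The medians were 900.5 bp over 10 neuronal peaks and 825 bp over 13 total peaks, the unshared ones included. Over the whole lists they were 799 bp in the neuronal list and 823 bp in the total list.

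The members fell at both extremes of fold enrichment, the authors' ratio of reads at the summit to the local background. Fold enrichment exceeded the list median at 3 of 10 member peaks in the neuronal list (median of the list 10.5) and at 4 of 13 in the total list (10.7). The 3 sites at swsn-1, lin-40 and inside dot-1.1 stood in the highest 1% of both lists, while 6 sites, all inside let-526 and zfp-1, stood in the lowest 20% of both. The median fold of the member peaks was 7.58 over the 10 peaks of the neuronal list and 8.79 over the 13 of the total list, which include 3 unshared ones.

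**Figure D2:**
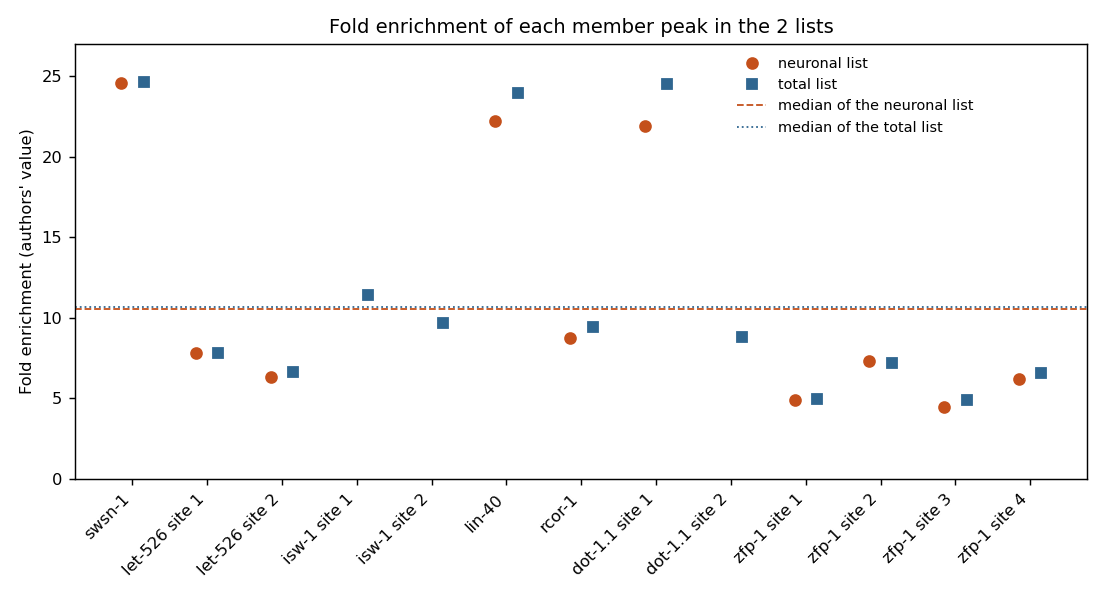
The authors' fold enrichment (linear axis) of each member site in the neuronal list (circles) and the total list (squares), with the list medians of 10.5 and 10.7 as lines. swsn-1, lin-40 and dot-1.1 site 1 lie between 21.9 and 24.7 in both lists, the 6 sites of let-526 and zfp-1 lie between 4.48 and 7.83, and 3 sites have no neuronal value.

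Among the SWI/SNF genes, swsn-1 carried 1 of the highest peaks of the data by fold enrichment. It encodes the worm counterpart of the SWI3 core scaffold subunits. Its peak lay on chromosome V from 20249307 to 20250334 in the neuronal list and from 20249330 to 20250334 in the total list. The gene (CELE_Y113G7B.23) runs from 20239180 to 20249488, so the summit was 364 bp outside its high-coordinate end in the neuronal list and 363 bp in the total list, and the peak reached 182 bp and 159 bp into the gene. The nearer end of the next gene, the Mediator subunit gene mdt-17, was 962 bp from the neuronal summit. The fold enrichment of the swsn-1 peak was 24.6 in the neuronal list, where it ranked 3 of 2313, and 24.7 in the total list, where it ranked 4 of 2683. By reads over the summit it ranked lower, 269 in the neuronal list with 3391 reads and 259 in the total list with 2345 reads. None of the other SWI/SNF genes listed further on had a peak of that fold.

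Of let-526, the worm counterpart of the ARID1 subunits that define the BAF form of SWI/SNF, 2 sites were open, both inside the gene. The gene (CELE_C01G8.9) lies on chromosome I from 5300901 to 5317392. Site 1 ran from 5312794 to 5313524 in both lists, with the summit at the same base, 4269 bp inside the high-coordinate end. Its fold enrichment was 7.83 in the neuronal list and 7.83 in the total list, and the neuronal over total ratio of 1.00 was 1 of only 2 at member sites that did not fall below 1. Site 2 ran from 5315931 to 5316944 in the neuronal list and from 5315974 to 5316945 in the total list, 847 bp and 845 bp inside the same end. It had a fold of 6.31 in neuronal nuclei and 6.67 in total nuclei. The summits of the 2 sites were 3424 bp apart. A short gene nested in let-526, F48C1.3, has the end nearest to site 1, so that site belongs to let-526 through the span and not through the nearest end.

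The let-526 sites combined low folds with many reads. Reads over the summit and the local background were recovered from the authors' fold and p-value by solving the formulas of the peak caller at its default settings. In the neuronal list 99.8% of the recovered read numbers came within 0.02 of a whole number, and in the total list 99.9%. At let-526 site 1 it was 7388 reads in the neuronal list (95% exact Poisson interval 7220.5 to 7558.4, for counting error only) over a background of 942.1 reads, and 5140 reads in the total list (5000.4 to 5282.5) over 655.8. List medians were 1920 reads over a background of 183.8 in the neuronal list and 1204 over 113.2 in the total list. Site 2 had 5803 reads over 919.5 in the neuronal list and 4306 over 644.9 in the total list. By reads over the summit, site 1 ranked 10 of 2313 in the neuronal list and 11 of 2683 in the total list, so it was among the most covered sites while its fold stood at ranks 1917 and 2242.

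The sole ISWI gene of the set, isw-1, was the member with no neuronal peak. It encodes the ISWI ATPase, which spaces nucleosomes and is the motor of the NURF remodeller. The gene (CELE_F37A4.8) lies on chromosome III from 6703988 to 6710100. Site 2, at its high-coordinate end, ran from 6709513 to 6710764 in the total list, with the summit 40 bp outside the gene and 588 bp of the peak inside it. Its fold enrichment was 9.69, a little below the list median, and it rested on 756 reads (703.1 to 811.9, exact Poisson) over a background of 77.1. Its reproducibility score was 801 on a scale that ends at 1000, where 89.97% of the total list sits.

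Site 1 of isw-1 depends on how peaks are tied to genes. It spanned 6694941 to 6695657 and had a fold of 11.4, from 799 reads over a background of 69.1. Its summit lay inside rbf-1, the gene of the synaptic vesicle protein rabphilin. The spans of rbf-1 and isw-1 overlap by 11 bp, so the summit was 8640 bp from the nearer end of isw-1 and 8650 bp from the nearer end of rbf-1. Counting spans alone leaves isw-1 with 0 peaks, and spans widened by 1000 bp leave it with 1, at site 2. Among genes with any peak, 16.2% had peaks in the total list alone and 0.408% had 2 or more peaks found in that list alone, 11 genes with isw-1 included.

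Peaks of the total list alone were most frequent in its weaker part, where all 3 such member sites lay. Ordered by p-value, 66.2% of the weakest 20% of total peaks overlapped no neuronal peak. In the next 20% the share was 20.1%, in the middle 20% it was 0.746%, and in the 2 strongest groups of 20% it was 0.00%. By p-value isw-1 site 2 stood at percentile 13.9 and dot-1.1 site 2 at percentile 2.53, both in the weakest 20%. Site 1 of isw-1 stood at percentile 26.2, in the next 20%. Its fold, at percentile 59.2, was above the list median. The background of 69.1 reads under isw-1 site 1 and dot-1.1 site 2 is the lowest in the total list, shared by 202 peaks.

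At lin-40, 1 tall and narrow peak was found outside the gene. lin-40 encodes a worm counterpart of the metastasis-associated (MTA) subunits of NuRD, a complex that couples nucleosome remodelling to histone deacetylation. The gene (CELE_T27C4.4) lies on chromosome V from 3704988 to 3712793. The peak ran from 3703696 to 3704286 in the neuronal list and from 3703690 to 3704290 in the total list, with the summit 924 bp and 922 bp outside the low-coordinate end. Neither list's peak touched the gene, and the nearest other end, that of unc-132, was 2149 bp from the neuronal summit. Fold enrichment was 22.2 in the neuronal list, rank 18, and 23.9 in the total list, rank 11. The site also had many reads, 5758 over a background of 258.1 in the neuronal list and 3965 over 164.7 in the total list, and it stood above percentile 99 by fold and by p-value in both lists.

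The rcor-1 peak was wide and stood in the lower part of both lists by fold and by p-value. rcor-1 encodes a CoREST-type scaffold, which in animals links the LSD1 demethylase and histone deacetylases to silencing of neuronal genes outside neurons. The gene (CELE_Y74C9A.4) lies near the end of chromosome I, from 17484 to 26781. Its peak ran from 26380 to 27560 in the neuronal list and from 26405 to 27588 in the total list, with the summit 397 bp and 392 bp outside the high-coordinate end. The peak lies between rcor-1 and the sestrin gene sesn-1, whose nearer end was 413 bp from the neuronal summit, almost as close as that of rcor-1. Fold enrichment was 8.75 in the neuronal list and 9.46 in the total list, at percentiles 26.5 and 35.6. That gap of -9.09 percentile points was the largest in size of the 10 shared sites. Ranked among the 2199 sites paired one to one the gap was -2.32 points, against a median absolute gap of 3.36 points over all of them.

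The histone methyltransferase gene dot-1.1 had a high peak deep inside the gene in both lists and a weak peak at its end in the total list. dot-1.1 encodes a DOT1 enzyme and works in a complex with the product of zfp-1. The gene (CELE_Y39G10AR.18) is 18540 bp long and lies on chromosome I from 2382953 to 2401492. Site 1 ran from 2393159 to 2393945 in the neuronal list and to 2393983 in the total list. Its summits were at the same base, 7980 bp inside the high-coordinate end, and no other gene held the summit. Fold enrichment was 21.9 in the neuronal list, rank 19, and 24.5 in the total list, rank 5. In the neuronal list 27.4% of all peaks had a summit inside a gene, and in the total list 27.1%.

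Of the 10 shared sites, dot-1.1 site 1 had the lowest neuronal value relative to the total one. It had 2999 reads over the summit in the neuronal list (2892.6 to 3108.3, exact Poisson) and 2353 in the total list (2258.9 to 2450.0), a ratio of 1.27. Across all shared sites the median ratio was 1.48, and 5% of sites were below 1.296 and 5% above 1.68, so this site stood at percentile 3.09. Its fold ratio of 0.894 stood at percentile 19.4, within the range of most shared sites. Whether the difference exceeds the spread between samples cannot be tested with 1 list per group.

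Site 2 of dot-1.1, in the total list alone, ran from 2401229 to 2401929, with the summit 161 bp outside the high-coordinate end and 264 bp of the peak inside the gene. Its fold enrichment was 8.79 from 615 reads over 69.1, and its reproducibility score of 463 was the lowest of the 23 member peaks. It is lost when the total list is shortened to the number of peaks in the neuronal list. The nearest end of another gene, the kinetochore gene zwl-1, was 577 bp from this summit.

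The zfp-1 gene held 4 sites, all inside the gene and all found in both lists. zfp-1 encodes a zinc finger protein, the worm counterpart of human AF10, which recruits DOT1. The gene (CELE_F54F2.2) lies on chromosome III from 8791827 to 8806305, and the 4 summits spread over 7063 bp of it in the total list. Among genes with a peak, 0.185% had 4 or more in the total list, 5 genes with zfp-1 included. The gene is 14479 bp long, and the members as a set are long: their median length was 10309 bp, against 3301.5 bp for genes with a peak and 2006 bp for all protein-coding genes. Of the genes with a peak 25.9% were longer than isw-1, the shortest member at 6113 bp.

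Site 1 of zfp-1 ran from 8794657 to 8795112 in the neuronal list, with a fold of 4.88, and from 8794665 to 8795112 in the total list, with 4.93. Site 2 ran from 8795475 to 8796107 in the neuronal list (fold 7.33) and from 8795483 to 8796066 in the total list (7.20), and it was the other member site whose fold was not lower in neuronal nuclei. These sites lie 3039 bp and 4000 bp inside the low-coordinate end, and their summits matched to the base between lists. Site 3 ran from 8799814 to 8800831 in the neuronal list (fold 4.48) and from 8799791 to 8800826 in the total list (4.89). Site 4 ran from 8801259 to 8802358 in the neuronal list (fold 6.23) and from 8801345 to 8802348 in the total list (6.56). Another gene end, of the overlapping gene F54F2.14 for sites 1 and 2 and of the nested gene F54F2.6 for sites 3 and 4, was nearer to each summit than any end of zfp-1.

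As at let-526, the low folds of zfp-1 stood over a high local background. Site 3 had 4376 reads over the summit in the neuronal list and 3218 in the total list, and its background of 975.0 and 656.7 reads ranked 3 in both lists. The 2 let-526 sites ranked 4 and 5 by background, and zfp-1 site 4 ranked 8, in both lists alike. Over the neuronal list 99% of peaks had a background under 583.7 reads, and over the total list under 389.4. The lowest background of the 6 sites, at zfp-1 site 1, was 500.9 reads in the neuronal list, rank 39, and 320.0 in the total list, rank 50. A high background was common among low folds: among the lowest 20% by fold, 43.9% of neuronal peaks and 42.0% of total peaks were also in the highest 20% by background. Unrelated ranks would give about 20%. Fold is a ratio to this background, so low fold and high background are tied by construction. What raises the background at these 2 genes was not tested.

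**Figure D3:**
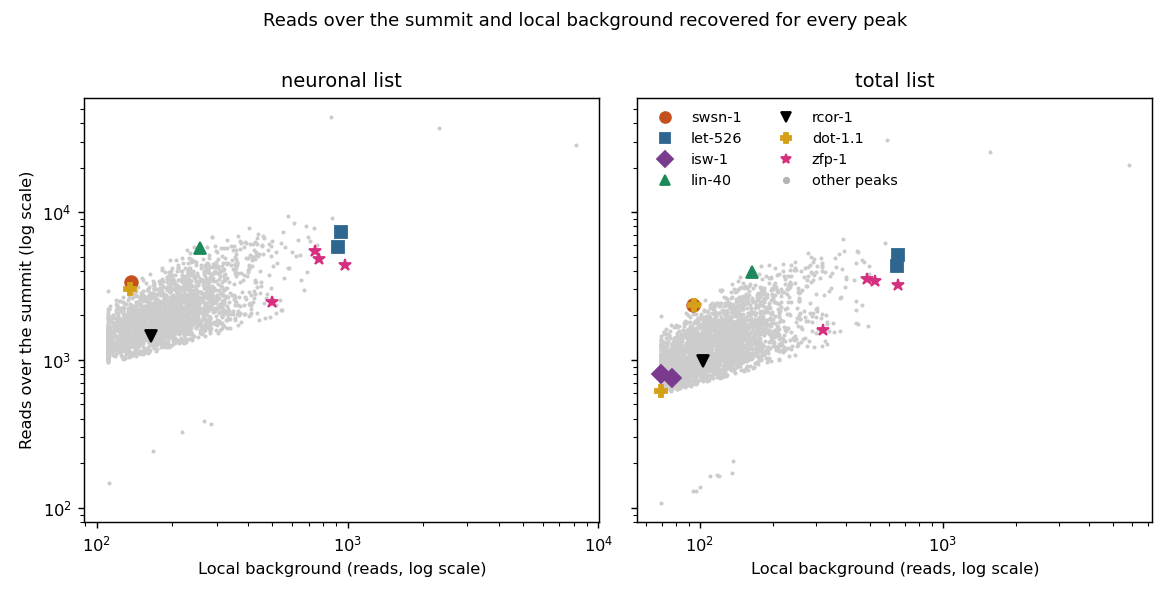
Recovered reads over the summit against recovered local background for every peak of the neuronal list (left) and the total list (right), both on log axes, with the members as coloured symbols and other peaks in grey. The let-526 and zfp-1 sites lie to the right of most peaks. Their backgrounds were 500.9 to 975.0 reads in the neuronal list and 320.0 to 656.7 in the total list. The swsn-1 site and dot-1.1 site 1 nearly coincide at high reads over a background below the list median.

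The order of the members therefore depended on the measure. By fold the median percentile of the member peaks was 14.6 in the neuronal list and 26.9 in the total list. By the authors' p-value it was 89.3 and 86.5. The total medians also cover the 3 sites found in the total list alone, so the 2 lists are not compared over the same sites. Ranked by fold among sites paired one to one, the medians were 13.0 in the neuronal list and 9.21 in the total list. These fold medians depend on how peaks were tied to genes. With the nearest gene end alone, the zfp-1 sites and let-526 site 1 drop out. The neuronal peaks left, of swsn-1, let-526 site 2, lin-40, rcor-1 and dot-1.1, stood at fold percentiles 99.9, 5.32, 99.3, 26.5 and 99.2. The total peaks left stood at 99.9, 6.82, 59.2, 38.1, 99.6, 35.6, 99.9 and 26.9. Their medians were not computed. The 3 sites of swsn-1, lin-40 and dot-1.1 stood at percentile 91.0 or higher by either measure in both lists. Both let-526 sites stood low by fold and high by p-value, with fold percentiles of 17.2 and 5.32 and p-value percentiles of 96.8 and 88.6 in the neuronal list.

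Neuronal and total nuclei gave nearly the same picture at the shared sites. The fold was lower in the neuronal list at 8 of 10 member sites, with a median ratio of 0.947. Over all 2199 shared sites the median ratio was 0.942, and the fold was higher in the neuronal list at 16.4% of them. All 10 member ratios, from 0.894 to 1.02, lay inside the range that holds the central 90% of shared sites, 0.847 to 1.04. Reads over the summit were higher in the neuronal list at every shared member site, by a median ratio of 1.44, and over all shared sites the median ratio was 1.48. The local background was higher there too, by ratios of 1.43 to 1.59 at the member sites. Its median ratio over all shared sites was 1.58. No member site thus lay outside the central range in fold.

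**Figure D4:**
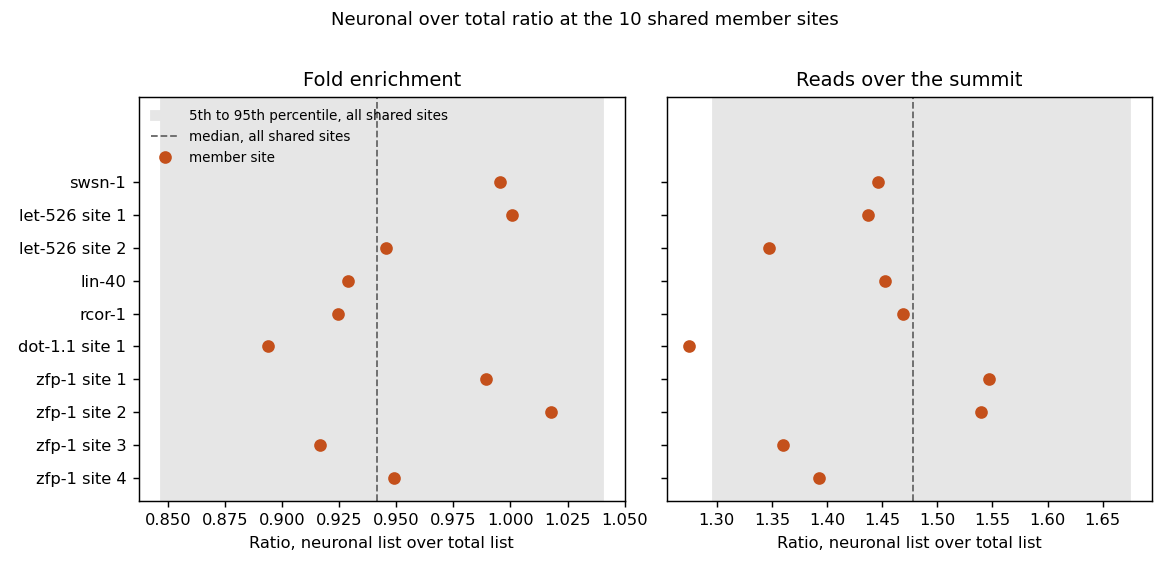
Ratio of the neuronal to the total value at the 10 shared member sites, for fold enrichment (left) and reads over the summit (right), with the median of all 2199 shared sites as a dashed line and their 5th to 95th percentile in grey. All fold ratios lie inside the grey range, and for reads dot-1.1 site 1, at 1.27, lies below its lower edge of 1.296.

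As a check of the labels, peaks at cell type marker genes were counted, and more neuronal markers had a peak in the total list than in the neuronal one. Of 6 neuronal marker genes 3 had a peak in the neuronal list (ric-19, unc-104 and unc-64) and 5 in the total list, and rab-3 had none. The ric-19 peak counts in both lists, although it cannot be separated from reads of the transgene. Of 13 markers of muscle, intestine, germline, hypodermis and pharynx, 2 had a peak in the neuronal list (elt-2 and glh-1) and 2 in the total list (elt-2 and unc-15). These counts do not show neuronal markers enriched in the neuronal list.

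Peaks also marked other chromatin genes, 80 genes in 8 lists besides the 7 members. The Polycomb, COMPASS and H3K9 list, the DREAM and synMuv B list and the histone acetyltransferase list held no member. A peak in either list was found at 34 of them (42.5%), while 13.5% of all protein-coding genes had one. A neuronal peak was found at 30 of them, against 11.3% of all protein-coding genes, and a total peak at 32, against 13.0%. The lists were not matched to other genes on length, and of genes longer than isw-1 31.0% had a peak. The lists were also chosen with earlier results of these data known, so these shares are a description and were not tested. Among these 34 genes 2 had a neuronal-only peak and 4 a total-only peak, where 18.2% of all genes with a peak had at least 1 total-only peak. The share of all genes with a neuronal-only peak was not counted. By peak, 4.11% of the neuronal list overlapped no total peak. No peak of the other genes reached the highest 1% by fold in either list. That part holds 1% of all peaks by definition, so with 33 neuronal and 36 total peaks this is not read as a result. Of these summits, 6 of 33 neuronal and 6 of 36 total ones lay inside the gene.

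In the SWI/SNF list 4 of 11 other genes had a peak. The PBAF subunit gene pbrm-1 had a shared peak inside the gene, with a fold of 14.0 in the neuronal list and 15.5 in the total list, and phf-10 one outside it with 10.9 and 12.0. The end nearest to the pbrm-1 summit was that of C26C6.8 in both lists, so that peak belongs to pbrm-1 through the span alone. Peaks of 1 list alone were found at swsn-3, in the total list (fold 9.59), and at dpff-1, in the neuronal list (7.16). By p-value these stood low, at percentiles 9.36 and 4.06 of their lists. The ATPase gene swsn-4 had no peak.

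Among the ISWI, CHD and INO80 or SWR1 remodellers 8 of 13 genes had a peak. The gene nurf-1, which encodes the large BPTF-type subunit that partners ISWI, had 2 shared sites inside the gene, with folds of 7.49 and 10.9 in the neuronal list and 7.498 and 11.5 in the total list, so it had peaks in both lists where isw-1 had none in the neuronal one. The enhancer of polycomb gene epc-1 had up to 13.9 in the neuronal list and 13.8 in the total list. The peaks of chd-7 reached 10.2 in the neuronal list and 10.8 in the total list, and that of gfl-1 8.995 and 8.95. Of the paired ATPases of the INO80 and SWR1 complexes, ruvb-1 had a neuronal-only peak (fold 5.66) and ruvb-2 a total-only peak (10.4). By p-value both were in the weaker part of their lists, at percentiles 6.87 and 28.8.

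In the NuRD and MEC list 5 of 9 other genes had a peak, all with folds below the list medians. The second MTA-type gene, egl-27, had a shared site inside the gene at 6.17 in the neuronal list and 6.14 in the total list. It also had a total-only site 1045 bp outside the gene at 4.97, at percentile 11.6 by p-value. Its shared site was thus far below the 22.2 of lin-40 in the neuronal list. The folds were 7.83 in the neuronal and 8.77 in the total list for chd-3, 7.55 and 7.04 for dcp-66, 6.93 and 6.72 for lin-53, and 6.14 and 6.68 for the MEC gene mep-1. Neither the deacetylase gene hda-1 nor the ATPase gene let-418 had a peak.

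Of the CoREST, LSD1 and SIN3 genes, 2 of 8 besides rcor-1 had a peak. These were spr-3, at 9.06 in the neuronal list and 9.88 in the total list, and spr-4, at 7.40 and 8.01, which encode zinc finger repressors found as suppressors of a presenilin mutant. The second CoREST gene spr-1 and the LSD1-type demethylase genes spr-5 and lsd-1 had none. Among the other DOT1 genes dot-1.2 had a fold of 14.2 in the neuronal list and 13.0 in the total list, 3058 bp outside the gene, and dot-1.4 had 6.999 and 7.55.

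In the remaining lists peaks were found at 5 of 21 Polycomb, COMPASS and H3K9 genes, 6 of 10 DREAM and synMuv B genes and 2 of 4 histone acetyltransferase genes. The methyltransferase gene met-1 had 12.7 in the neuronal and 13.9 in the total list, the demethylase gene utx-1 11.6 and 11.8, dpy-30 11.6 and 12.1, and ash-2 8.45 and 9.33. The H3K9 methyltransferase gene set-25 had a total-only peak of fold 7.74, at percentile 15.3 by p-value. In the synMuv B list lin-36 had 13.5 in the neuronal and 13.9 in the total list, lin-13 11.9 and 12.1, lin-15B 11.8 and 13.4, and lin-9 9.58 and 9.14. The highest peak of all 80 genes was at hat-1, with 18.3 in the neuronal list and 18.0 in the total list, inside the neighbouring gene M03C11.3, and the CBP gene cbp-1 had 13.5 and 14.0.

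**Figure D5:**
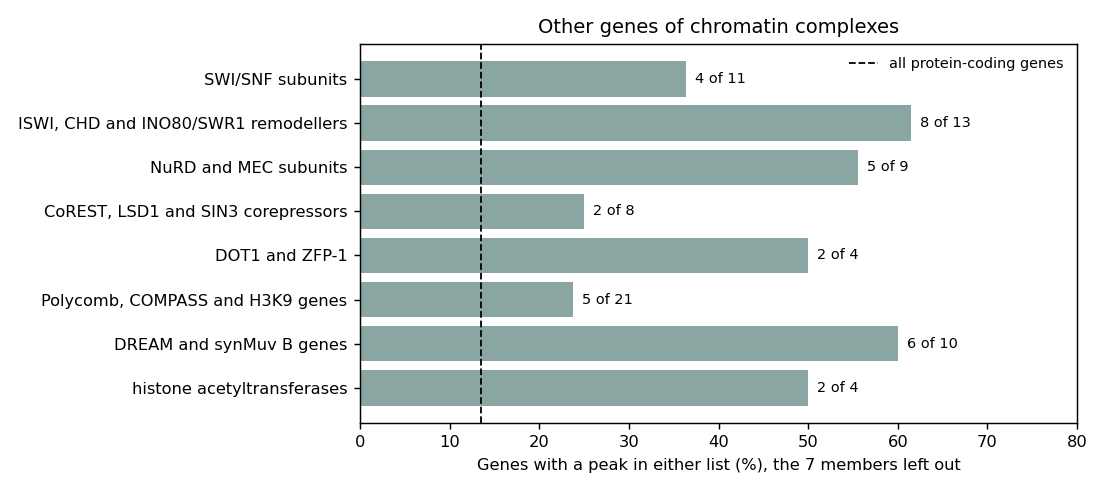
Share of the other genes of each chromatin list, the 7 members left out, that had a peak in either peak list, with the count beside each bar and the share of all protein-coding genes (13.5%) as a dashed line. Shares run from 23.8% for the Polycomb, COMPASS and H3K9 list to 61.5% for the remodeller list. The lists were chosen with earlier results of these data known and were not matched on length.

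For each member with peaks in both lists, the gene most like it was taken as the one with the same number of peaks in each list and the closest percentile of its highest fold, summed over the 2 lists. This gave tim-1 for swsn-1, sulp-3 for lin-40 and rps-25 for rcor-1, each at a summed distance under 1 percentile point among 1942 genes with 1 peak in each list. It gave Y55F3BR.2 for dot-1.1 (0.446 points, 62 genes) and klf-1 for let-526 (3.45 points, 113 genes). Only 2 other genes had 4 peaks in each list, and the closer to zfp-1, the corepressor gene din-1, was 79.0 points away, with a highest fold of 10.4 in the neuronal list and 11.0 in the total list.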

How the data were processed

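ATAC-seq was carried out on 3 samples of neuronal and 3 of total nuclei, grouped by the labels, which do not say whether samples came from separate cultures. The submitters' processing notes name cutadapt 1.9.1, Bowtie2 2.2.6, SAMtools 1.7, Picard, bedtools 2.26, MACS2 and build ce11. Tn5 shifting, duplicates and how samples were combined are not given in the sources used. The authors deposited 1 peak list per group, thresholded at an irreproducible discovery rate of 0.1 per its name. Each peak has a deposited fold enrichment (a ratio to local background), a deposited −log10 p-value, a deposited score of at most 1000 and a summit offset. The depth per sample is unknown.

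Gene positions came from the RefSeq table of WBcel235, the same sequence as ce11, which has no strand. All 87 listed genes matched. Peaks overlapping by 1 bp were shared. Percentiles run from 0 to 100 within a list, 100 highest. Reads and local background were solved from fold and p-value with default MACS2 formulas, checked on simulated data, and rest on those defaults. Intervals cover counting error only. Python 3.11.15, numpy 2.4.6, scipy 1.17.1, pandas 2.3.3 and matplotlib 3.10.9 were used. Alternatives were other assignments, overlap rules, thresholds and ranks. Members and lists were chosen with earlier results of these data known. Named besides members are their neighbours, listed genes with an unshared peak, up to 4 listed genes per list by fold, and the most similar gene; mep-1 and genes without a peak were chosen after values were seen. A planned promoter sequence search was not run, since no sequence was used here.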

Additional observations from a re-analysis of the deposited data

How the results depend on the processing

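No paired analysis was possible because there is 1 peak list per group and no value per sample was analysed here, and leaving out single samples was not run, as it needs such values too. With the nearest gene end alone the members had 5 neuronal and 8 total peaks, 5 of each shared, since the zfp-1 sites and let-526 site 1 then belong to other genes. With spans alone they had 7 total peaks and 0 total-only ones. Peaks were then found at 5 other chromatin genes in the neuronal list, 5 in the total list and 6 in either, in place of 34. The share of all protein-coding genes with a peak by spans alone was not counted, so these counts have no background. In the stronger 50% of each list by p-value, 8 total peaks and 0 total-only peaks were left. With summits within 100 bp counted as shared, zfp-1 site 4 became 1 neuronal-only peak. The median percentile of member peaks was 89.3 in the neuronal and 86.5 in the total list by p-value, and 13.0 and 9.21 by fold among sites paired one to one. The median percentile by fold was not computed for the nearest gene end alone. Spans widened by 1000 bp, reciprocal overlap and equal numbers of peaks kept the counts over all members within 1.5 times. The sites of the total list alone at isw-1 and dot-1.1 had 615 to 799 reads over the summit. The lowest local background was 110.35 reads in the neuronal list and 69.07 in the total list. What part depth has in the absence of these sites from the neuronal list was not tested.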

Other observations

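The far flank of rcor-1 also held a peak, 440 bp outside its low-coordinate end, with a fold of 7.57 in the neuronal list and 8.11 in the total list. It was nearer to the neuropeptide gene nlp-40 and so was not counted for rcor-1.

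The total-list peak at the E2F gene efl-1 (fold 11.3) overlapped a neuronal peak of fold 10.9 whose summit lay 960 bp away and was nearest to fbxa-90, so efl-1 had a peak in the total list alone although the site was shared.

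In each list 5 genes had 4 or more peaks. Besides zfp-1, those with 4 in both lists were din-1 and lin-42.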
